A study of Mus musculus with 6 samples.

Results

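The 34 genes described here encode the scaffold proteins of the excitatory postsynaptic density and the adhesion molecules of the synaptic cleft. They were taken by symbol (Dlg1 to Dlg4, Dlgap1 to Dlgap4, Shank1 to Shank3, Homer1 to Homer3, the 4 subunits of CaMKII, Nrgn, Nlgn1 to Nlgn3, Nrxn2, Nrxn3, Lrrtm1 to Lrrtm3, Iqsec1, Iqsec2, Baiap2, Cnksr2, Ppp1r9b, Kalrn and Lrrc7), from probe sets that name exactly 1 gene. A probe set named 31 of the 34, and 30 had a probe set with a mean intensity of at least 50 in at least 1 group, among 11821 such genes of 18193 named on the array. Shank2, Ppp1r9b and Lrrc7 had no probe set of their own symbol alone. Shank1 had 1, under 50 on every array, with means of 8.30 in Glt25d2 and 10.3 in S100a10.

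RNA bound to tagged ribosomes was pulled down from the cortex of 2 lines of bacTRAP mice, in which a bacterial artificial chromosome drives the ribosome tag in the cells that use the promoter of S100a10 (line ES691) or Glt25d2 (line DU9, a gene now named Colgalt2). Both lines were crossed from FVB to C57BL/6 for 3 to 5 generations and untreated. Age, sex and pooling of animals are not given in the sources used here. Each line gave 3 arrays, titled as biological replicates, and p-values measure the spread between these 3 and 3. The series compares 2 classes of cortical pyramidal cell, and its own text warns that the S100a10 line also tags some cells that are not neurons. One library, Glt25d2 replicate 3, stood apart from its group in the adhesion genes, and also in genes of other kinds. Results that rest on it are given with and without it. In RNA from many cells at once, fewer tagged cells of a type and less RNA per cell cannot be told apart.

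At an excitatory synapse, membrane-associated guanylate kinases of the Dlg family hold glutamate receptors under the membrane, and Dlgap proteins tie them to Shank, which in turn binds Homer and the actin cytoskeleton. CaMKII is the abundant kinase of this density, and neurogranin (Nrgn) holds its activator calmodulin. Neurexins on the axon side bind neuroligins and Lrrtm proteins on the dendrite side and align the release site with the receptors.

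Of the 30 tested genes, 9 were higher in the S100a10 arrays as deposited (Dlg4, Dlgap3, Dlgap4, Shank3, Homer2, Homer3, Nrgn, Nrxn3 and Iqsec1), 0 were lower and 21 did not pass (limma, adjusted p under 0.05 over all genes). Over all 11821 genes, 44.7% were called higher and 4.59% lower, against 30% and 0% of these genes, a comparison not matched for brightness. Their median log2 difference, S100a10 minus Glt25d2, was 0.35, against 0.56 for all genes. The arrays carry this general shift themselves: the median intensity over all probe sets was 20.4 to 21.3 on the Glt25d2 arrays and 35.5 to 35.8 on the S100a10 arrays. The median of all genes fell with their brightness, from 0.89 for the 4690 under an intensity of 300 to 0.19 for the 1735 over 3000. For the genes described here the same brackets gave 0.70 (5 genes) and 0.29 (9 genes). The share of all genes called higher fell with brightness as well. It was 59.6% under 300, 41.4% from 300 to 1000, 32.6% from 1000 to 3000 and 26.2% over 3000. In the same order, 3 of 5, 2 of 7, 2 of 9 and 2 of 9 of the genes described here were called higher.

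Direction therefore has to be read with the scaling. When the 6 arrays were set to the same quantiles, 4 of the 9 stayed higher (Dlgap3, Homer2, Homer3 and Iqsec1; background 18.7%), and Camk2a and Kalrn were called lower (background 19%). Centring each array on its median left Dlgap3 and Homer3 higher (background 16.6%) and called 8 genes lower, namely Dlg1, Dlg2, Dlg3, Dlgap4, Camk2a, Camk2b, Camk2g and Kalrn (background 31.8%). Dlgap3 was called higher under all 3 scalings. Homer3 was too, but it lay under 50 on every Glt25d2 array, and with values under 50 set to 50 it gave 0.31 and was not called (adjusted p = 0.181, limma). Dlgap4 was called in opposite directions as deposited and after centring. Values below are as deposited unless stated, listed for replicates 1, 2 and 3 in that order.

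**Figure D1:**
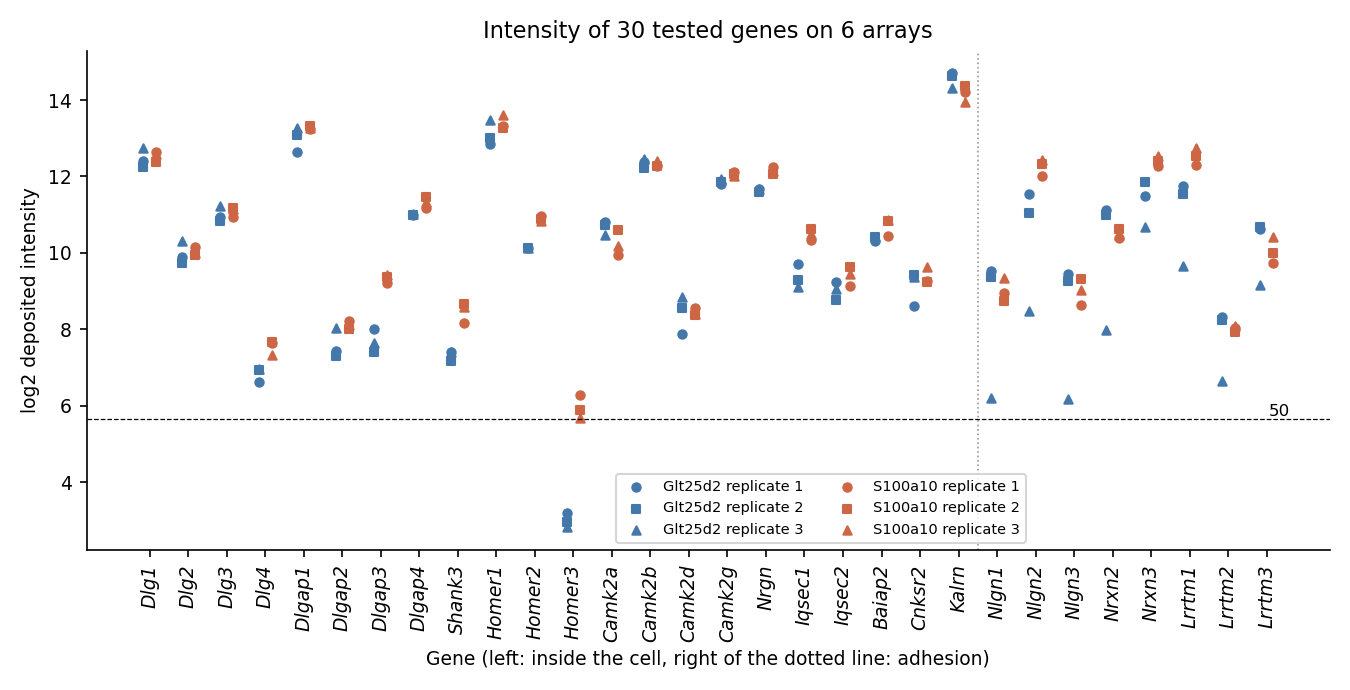
The plot gives the log2 deposited intensity of the 30 tested genes on each of the 6 arrays, with the Glt25d2 arrays in blue, the S100a10 arrays in red, and the filter limit of 50 as a dashed line. Heights of different genes are not comparable, since each comes from its own probe set. Homer3 lies below 50 on all Glt25d2 arrays, and the blue triangles of Glt25d2 replicate 3 drop below the other blue points in the adhesion genes at the right.

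Among the membrane-associated guanylate kinases, Dlg4 (PSD-95, the main anchor of the group) was higher in S100a10. Dlg4 read 98.5, 124 and 125 on the Glt25d2 arrays and 199.7, 204 and 159.5 on the S100a10 arrays, a log2 difference of 0.70 ± 0.16 (SE, n = 3 and 3, limma adjusted p = 0.0132). Every S100a10 array lay above every Glt25d2 array. A second Dlg4 probe set of like brightness read 126, 109 and 127 against 112, 138 and 114, and its groups overlapped. With quantile scaling the Dlg4 difference turned to -0.15, and without S100a10 replicate 1 its adjusted p was 0.0511 (limma).

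Dlg1 (SAP97), Dlg2 (PSD-93) and Dlg3 (SAP102) did not pass as deposited. Dlg1 read 5377, 4909 and 6864 against 6428, 5288 and 6197. Dlg2 read 949.8, 849 and 1264 against 1135, 992 and 1018. Dlg3 read 1975, 1831 and 2415 against 1950.2, 2327 and 2278. The groups overlapped for all 3, with log2 differences of 0.07, 0.06 and 0.08, and after centring each was called lower, by -0.70, -0.71 and -0.69.

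The Dlgap proteins, the link between guanylate kinases and Shank, differed among themselves. Dlgap3 (SAPAP3) read 259, 169.95 and 199 on the Glt25d2 arrays and 589, 666 and 691 on the S100a10 arrays. Its lowest S100a10 value was over double its highest Glt25d2 value, and the log2 difference was 1.65 ± 0.18 (SE, n = 3 and 3, limma adjusted p = 0.000838). It was 0.98 after quantile scaling (adjusted p = 0.00975, limma) and 0.88 after centring (adjusted p = 0.00909, limma), and 1.51 to 1.82 when any 1 array was left out.

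Dlgap4 read 2046, 2046 and 2079 against 2326, 2799.9 and 2599, a log2 difference of 0.32 ± 0.10 (SE, n = 3 and 3, limma adjusted p = 0.0478). That call was lost without any 1 of 5 of the 6 arrays, S100a10 replicate 1 being the exception, with log2 differences of 0.26 to 0.39 over the 6 and limma adjusted p of 0.0591 to 0.128 in the 5. A dimmer Dlgap4 probe set read 1531, 1220 and 1055 against 1994, 1859 and 2400, without overlap. It was called higher (0.72, adjusted p = 0.0198 over probe sets, limma), as was the mean of both (0.52, adjusted p = 0.0116, limma). Dlgap1 read 6336, 8629 and 9884 against 9658, 10249.9 and 9914, and its groups overlapped. Of the 5 Dlgap1 probe sets kept, 2 measured above 50 in both groups were called higher, with log2 differences of 0.48 and 0.79. Another that was called was under 50 on all Glt25d2 arrays, at least 1.13-fold higher in S100a10. Dlgap2 read 174, 158 and 264 against 298, 257 and 279 and did not pass (log2 difference 0.52, adjusted p = 0.0914, limma). Without Glt25d2 replicate 3, its value was 0.75 (adjusted p = 0.00202, limma) and that of Dlgap1 0.43 (adjusted p = 0.0484, limma).

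Shank3, the scaffold that joins the Dlgap layer to Homer and actin, was the Shank gene measured above the limit. Shank3 read 169, 143 and 169 on the Glt25d2 arrays and 286, 407 and 386 on the S100a10 arrays, so the groups did not overlap. The log2 difference was 1.15 ± 0.17 (SE, n = 3 and 3, limma adjusted p = 0.00276). After quantile scaling it was 0.39 (adjusted p = 0.197, limma), and after centring 0.38 (adjusted p = 0.120, limma).

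Dlgap3 and Shank3 are neighbours in this chain and both were called higher as deposited, whereas Kalrn was lower after both rescalings, so the 250 bases upstream of their annotated starts are printed here from RefSeq (GRCm38.p6). Capitals mark the GC box GGGCGG, read on both strands, the only one of 3 motifs searched that occurs in them. The Dlgap3 window is chr4:127172630-127172879 (plus strand), that of Shank3 chr15:89499358-89499607 (plus strand) and that of Kalrn chr16:34514028-34514277 (minus strand), each 5′ to 3′ on the gene's strand.
Dlgap3: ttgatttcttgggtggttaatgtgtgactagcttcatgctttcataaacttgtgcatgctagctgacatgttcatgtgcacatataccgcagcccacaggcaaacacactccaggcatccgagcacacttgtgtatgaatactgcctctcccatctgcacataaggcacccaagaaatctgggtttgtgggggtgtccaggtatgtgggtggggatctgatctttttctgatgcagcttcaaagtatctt
Shank3: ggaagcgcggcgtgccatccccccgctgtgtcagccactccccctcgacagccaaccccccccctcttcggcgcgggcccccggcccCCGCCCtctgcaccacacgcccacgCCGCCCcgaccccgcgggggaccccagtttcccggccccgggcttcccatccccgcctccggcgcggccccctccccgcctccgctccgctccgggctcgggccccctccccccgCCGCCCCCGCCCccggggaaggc
Kalrn: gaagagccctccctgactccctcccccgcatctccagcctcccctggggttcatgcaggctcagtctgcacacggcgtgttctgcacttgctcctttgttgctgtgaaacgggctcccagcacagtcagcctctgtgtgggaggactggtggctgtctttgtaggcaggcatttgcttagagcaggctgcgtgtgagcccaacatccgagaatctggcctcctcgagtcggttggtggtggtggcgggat

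The Shank3 window held 4 GC boxes, 31 CpG dinucleotides and 82.4% G or C. The Dlgap3 window held 0 GC boxes, 2 CpG and 46.8% G or C, and the Kalrn window 0 GC boxes, 9 CpG and 60.8% G or C. Among 41 windows of 24 tested genes, 18 held a GC box, against 32.7% of 32851 mouse promoters of this length. The cAMP response element TGACGTCA was in 0 of the 41 (1.55% of all promoters), and TATAAA was in 4 (12.4%), all read on both strands. A match is a string of letters and not a measured site, and many genes here have more than 1 annotated start.

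Homer proteins tie Shank to group I metabotropic glutamate receptors. Homer3 read 9.17, 7.83 and 7.08 on the Glt25d2 arrays, all under the limit of 50, and 77.8, 59.6 and 51.0 on the S100a10 arrays. Against the limit itself this was at least 1.24-fold higher in S100a10, with a fitted log2 difference of 2.95 ± 0.19 (SE, n = 3 and 3, limma adjusted p = 0.00012). That fit uses the measured values under the limit.

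Homer2 read 1119 on all 3 Glt25d2 arrays and 2002, 1895 and 1817 on the S100a10 arrays, a log2 difference of 0.77 ± 0.09 (SE, n = 3 and 3, limma adjusted p = 0.00104). Identical values on all arrays of a group leave no spread there, so the error is understated. The other Homer2 probe sets differed from it: one gave 0.09, and one read 92.8, 101 and 115 against 68.9, 56.7 and 75.6, lower in S100a10 by a log2 difference of -0.62 (adjusted p = 0.0189 over probe sets, limma). After centring, the brightest probe set's difference was -0.0016, and the mean of the 3 probe sets gave 0.078 (adjusted p = 0.547, limma).

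Homer1 read 7412, 8174 and 11337 against 10274, 9881 and 12400.1 in its brightest probe set, and the groups overlapped. Its 5 kept probe sets gave log2 differences of 0.29 to 1.21, with 2 called. The largest came from a dimmer probe set that read 107 on all 3 Glt25d2 arrays and 287, 228 and 232 on the S100a10 arrays (1.21 ± 0.12, SE, n = 3 and 3, adjusted p = 0.000666 over probe sets, limma). Without Glt25d2 replicate 3 the brightest probe set passed, at 0.47 (adjusted p = 0.0246, limma).

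None of the 4 CaMKII subunits passed as deposited. Camk2a, the alpha subunit that marks forebrain excitatory neurons, read 1788, 1694 and 1425 on the Glt25d2 arrays and 982, 1543 and 1169.6 on the S100a10 arrays. Its log2 difference was -0.43 ± 0.20 (SE, n = 3 and 3, limma adjusted p = 0.123), with S100a10 replicate 2 inside the Glt25d2 range. Without that array Camk2a was called lower at -0.60 (adjusted p = 0.0393, limma). It was called lower after quantile scaling (-0.88, adjusted p = 0.0218, limma) and after centring (-1.20, adjusted p = 0.00419, limma).

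Camk2b, the beta subunit that binds actin, read 5282, 4776 and 5657 against 4956, 4937 and 5395, a log2 difference of -0.04. The gamma and delta subunits are expressed in many tissues. Camk2g read 3585, 3712 and 3947 against 4462, 4295 and 4130.2, without overlap, but missed the threshold (0.20, adjusted p = 0.127, limma). A dimmer Camk2g probe set read 364, 364 and 417 against 947, 872 and 1002 and was called higher (1.30, adjusted p = 0.000354 over probe sets, limma).

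Camk2d read 237, 375 and 463 against 378, 334 and 338 in its brightest probe set, with overlapping groups. Of its other 3 kept probe sets, one read 251, 266 and 349 against 140.4, 181 and 124 and was called lower (-0.96, adjusted p = 0.0104 over probe sets, limma). Another, called higher in S100a10, was under 50 on all Glt25d2 arrays and on 1 S100a10 array (57.5, 56.9 and 42.6). No bound on its difference against the limit is therefore given. Which transcripts these probe sets read was not tested.

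Nrgn, neurogranin, read 3279, 3096 and 3279 on the Glt25d2 arrays and 4869.8, 4300.4 and 4529 on the S100a10 arrays. Its log2 difference was 0.50 ± 0.09 (SE, n = 3 and 3, limma adjusted p = 0.00702), and it kept the call without any 1 array. The difference was 0.20 after quantile scaling (adjusted p = 0.193, limma) and turned to -0.26 after centring.

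Of the regulators of spine membrane and actin, Iqsec1, an exchange factor for the small GTPase Arf6, passed. Iqsec1 read 835, 621 and 547 against 1299, 1592 and 1449, a log2 difference of 1.13 ± 0.19 (SE, n = 3 and 3, limma adjusted p = 0.00414) that was 0.62 after quantile scaling (adjusted p = 0.0429, limma). A second Iqsec1 probe set read 626, 626 and 586 against 626, 653 and 679.96 and gave 0.09. Iqsec2, its relative at excitatory synapses, showed the reverse order: the brightest probe set read 608, 439.9 and 537 against 565, 789.99 and 699 with overlap (0.37), and a dimmer one read 56.1, 56.1 and 64.2 against 189, 168 and 168 (1.58, adjusted p = 0.000169 over probe sets, limma). No order between the Iqsec genes can be taken from these probe sets.

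Baiap2 (IRSp53, which bends membrane and binds PSD-95 and Shank) read 1269.9, 1369.8 and 1369.8 against 1403, 1835 and 1861. In this brightest probe set the groups did not overlap, and it missed the threshold (0.34, adjusted p = 0.0978, limma). Without S100a10 replicate 1 it passed at 0.47 (adjusted p = 0.0196, limma). Dimmer Baiap2 probe sets gave 0.86 (adjusted p = 0.0060 over probe sets, limma), 0.43 (0.0224) and 0.08 (not called). The one at 0.43 read 142 on every Glt25d2 array. The mean of the Baiap2 probe sets was called higher as deposited (0.43, adjusted p = 0.0222, limma). Cnksr2, a scaffold of Ras signalling, read 392, 689 and 664 against 611, 599 and 791, with overlap.

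Kalrn encodes kalirin, an exchange factor for Rac and RhoA that shapes spines, and its probe sets leaned toward Glt25d2. The brightest read 26542, 25487 and 20458 on the Glt25d2 arrays and 18877, 21170.1 and 15743 on the S100a10 arrays. That difference was -0.38 ± 0.16 (SE, n = 3 and 3, limma adjusted p = 0.106), with S100a10 replicate 2 above the lowest Glt25d2 array. It passed after quantile scaling (-0.56, adjusted p = 0.0494, limma), after centring (-1.15, adjusted p = 0.00265, limma) and without Glt25d2 replicate 3 (-0.49, adjusted p = 0.0263, limma). One dimmer Kalrn probe set read 5696, 6500.4 and 2041 against 1051, 2019 and 848 and was called lower as deposited (-1.80, adjusted p = 0.0390 over probe sets, limma), while the 7 kept ranged from -1.94 to 0.01.

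**Figure D2:**
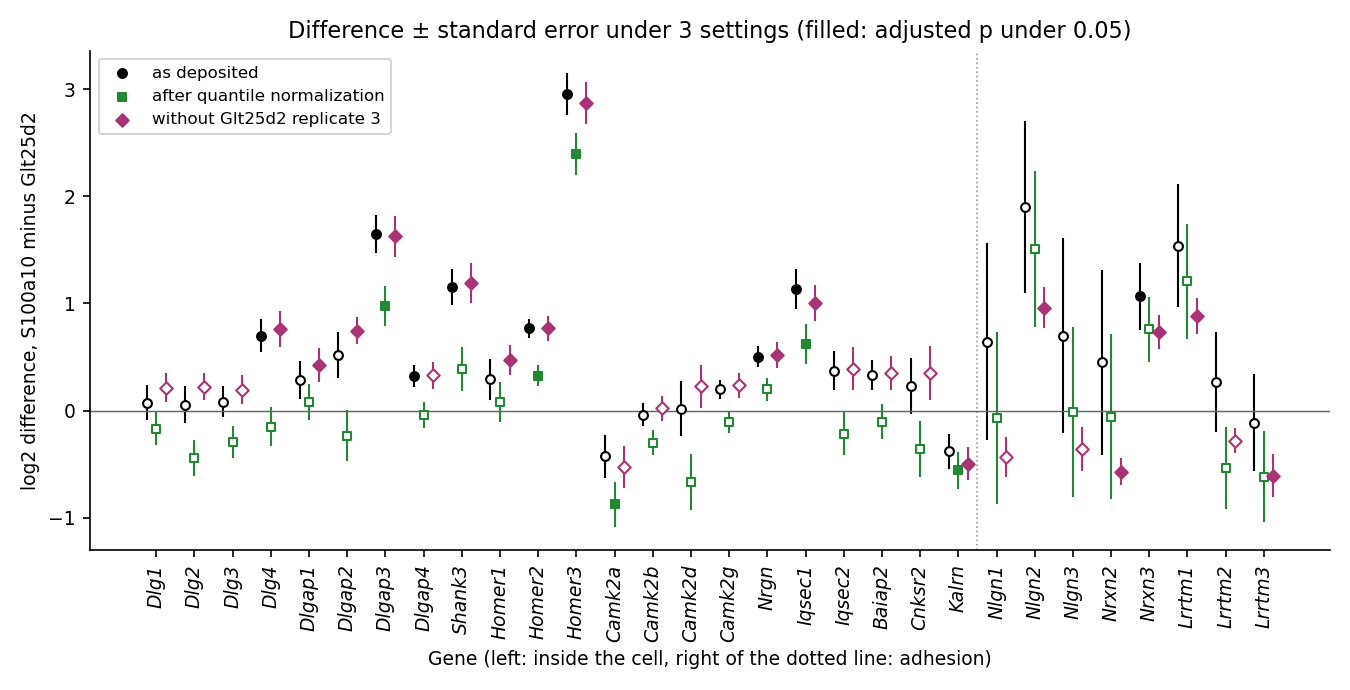
The plot gives each gene's log2 difference, S100a10 minus Glt25d2, with its standard error, as deposited, after quantile normalization and without Glt25d2 replicate 3. Filled marks passed an adjusted p of 0.05. Dlgap3, Homer2, Homer3 and Iqsec1 are filled in all 3 settings. Homer3 lay under 50 on every Glt25d2 array and passed the filter only through the S100a10 group. After centring, which is not shown, Homer2 and Iqsec1 were not called. Quantile scaling moves most genes down and turns the sign of 15. The adhesion genes at the right have long error bars until Glt25d2 replicate 3 is left out.

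Set against the average of Glt25d2 replicates 1 and 2, replicate 3 was down by over 2-fold in 7 of 8 neuroligin, neurexin and Lrrtm genes, against 0 of the 22 genes whose products lie inside the cell and 14.5% of all genes. These counts take each gene's brightest probe set. The log2 gap was -3.23 to -0.998 in the 8 (median -2.39) and -0.40 to 0.67 in the 22 (median 0.12). Over all kept probe sets the gap was present in 13 of 17 of the adhesion genes and 4 of 53 of the genes inside the cell, against 13.3% of all probe sets. The 4 were all of Kalrn (-1.16, -1.58, -2.11 and -2.28, of 7 kept), and one Nrxn3 probe set went the other way (0.20). Other synaptic adhesion genes showed the same gap in 30 of 34, and the other postsynaptic density genes in 1 of 36. The gap was not confined to synaptic adhesion genes. Among cell type markers it was present in 2 of 7 excitatory, 1 of 8 pan-neuronal, 4 of 9 interneuron and 5 of 8 astrocyte markers. It was also present in 2 of 7 oligodendrocyte, 1 of 4 microglial, 1 of 2 endothelial and 2 of 8 mural and fibroblast markers. S100a10 replicate 1 lay below the mean of S100a10 replicates 2 and 3 in 7 of the 8 adhesion genes, by smaller amounts (median -0.27). It did so in 12 of the 22 genes inside the cell (median -0.060) and in 5287 of all 11821 genes (median 0.030). What made Glt25d2 replicate 3 differ was not tested.

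**Figure D3:**
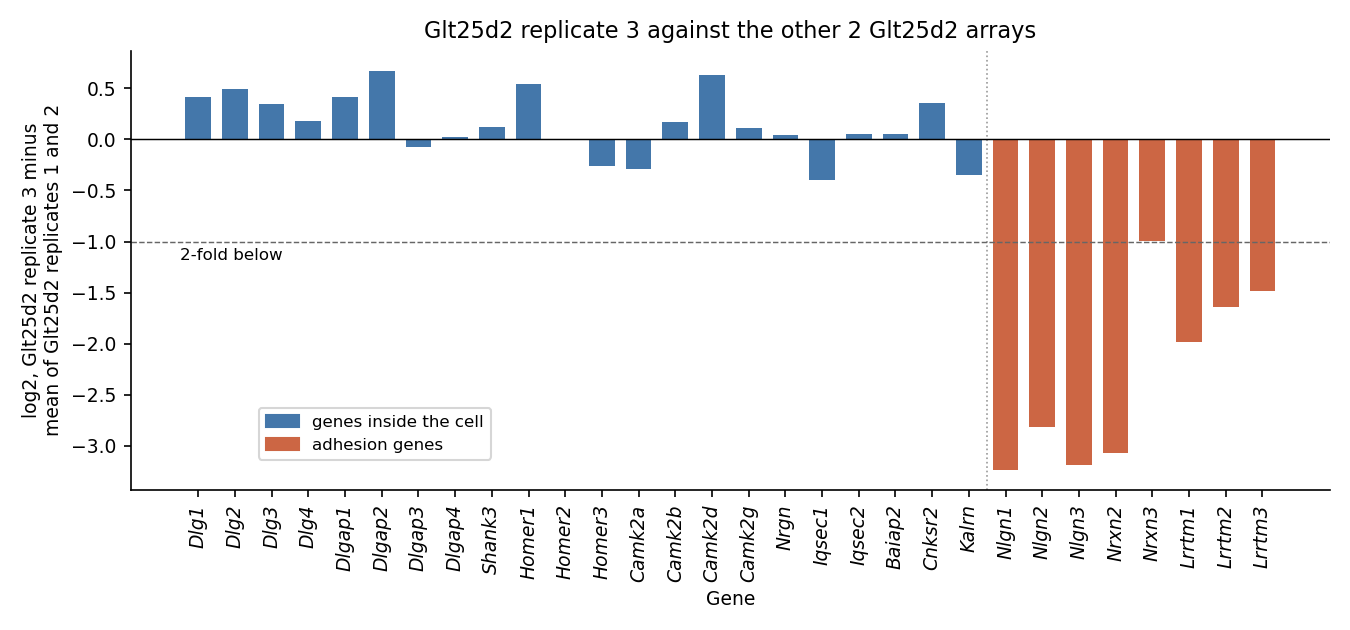
Bars give, for each gene's brightest probe set, the log2 intensity of Glt25d2 replicate 3 minus the mean of Glt25d2 replicates 1 and 2, in blue for genes whose products lie inside the cell and in red for adhesion genes, with a dashed line at 2-fold below. The 8 red bars reach from -0.998 to -3.23, and every blue bar stays between -0.40 and 0.67.

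Neuroligins sit in the dendrite membrane, Nlgn1 mainly at excitatory and Nlgn2 at inhibitory synapses, and Nlgn3 at both. Nlgn2 read 2968, 2123 and 358 on the Glt25d2 arrays and 4162, 5101 and 5491 on the S100a10 arrays. All S100a10 values were above all Glt25d2 values, yet the spread left the difference of 1.90 ± 0.80 short of the threshold (SE, n = 3 and 3, limma adjusted p = 0.10). Without Glt25d2 replicate 3 Nlgn2 was called higher at 0.96 (adjusted p = 0.00419, limma), and at 0.63 with quantile scaling as well (adjusted p = 0.0340, limma).

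Nlgn1 read 737, 661 and 74.2 against 498, 428 and 644. The first 2 Glt25d2 values lay above all S100a10 values and the third below them, so its difference of 0.64 turned to -0.44 without that array (adjusted p = 0.0790, limma). Nlgn3 read 698, 611 and 71.8 against 397, 637 and 518, and its 0.70 turned to -0.36 in the same way. With quantile scaling and without that array, Nlgn1 (-1.0, adjusted p = 0.00597, limma) and Nlgn3 (-0.93, adjusted p = 0.0121, limma) were called lower. A dim second Nlgn3 probe set was under 50 on all Glt25d2 arrays and gives only a bound, at least 1.31-fold higher in S100a10.

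Neurexins, the partners on the axon side, also parted in their brightest probe sets once that library was out. Nrxn3 read 2881, 3721 and 1639 against 4994, 5441 and 5935, without overlap, and its log2 difference of 1.07 ± 0.31 passed (SE, n = 3 and 3, limma adjusted p = 0.0331). It stayed called without Glt25d2 replicate 3 (0.73, adjusted p = 0.00543, limma), but not without Glt25d2 replicate 1 (1.14, adjusted p = 0.0627, limma) or any 1 S100a10 array (1.0 to 1.13, limma adjusted p of 0.0834 to 0.108). The Nrxn3 call was lost after quantile scaling (0.76, adjusted p = 0.0982, limma). The mean of its kept probe sets as deposited was not called either (0.77, adjusted p = 0.0552, limma). Without Glt25d2 replicate 3 its dimmer probe sets gave log2 differences of 0.24, 0.89 and 0.05. The parting from Nrxn2 is therefore given for the brightest probe sets only. Nrxn2 read 2219, 2052 and 255 against 1338, 1566 and 1414. Its difference of 0.45 turned to -0.57 without Glt25d2 replicate 3 and was then called lower (adjusted p = 0.00664, limma).

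Lrrtm proteins bind neurexins and recruit AMPA receptors. Lrrtm1 read 3429, 2981 and 811 on the Glt25d2 arrays and 5002, 5899 and 6919.5 on the S100a10 arrays. The groups did not overlap, and the difference was 1.54 ± 0.57 (SE, n = 3 and 3, limma adjusted p = 0.0700). Without Glt25d2 replicate 3 it passed at 0.88 (adjusted p = 0.00333, limma). All 3 Lrrtm1 probe sets were on the same side, at 1.54, 1.67 and 1.83.

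Lrrtm3 read 1589, 1631 and 575 against 847, 1023 and 1361. Its difference of -0.11 became -0.61 without Glt25d2 replicate 3 and was then called lower (adjusted p = 0.0344, limma). Lrrtm2 read 323, 302 and 100.5 against 260.1, 242 and 269.7, and its 0.26 turned to -0.28 (adjusted p = 0.0751, limma). Dimmer probe sets did not all follow. Without that array, a second Lrrtm2 probe set gave 0.42, and the other Lrrtm3 probe sets gave -0.77 and 0.58, so no common direction holds for either gene.

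On those 5 arrays 13 of the 30 genes were called higher, against a background of 55.8%, and 3 lower (Nrxn2, Lrrtm3 and Kalrn), against 6.34%. With quantile scaling as well, 4 were higher (Dlgap3, Homer3, Nlgn2 and Lrrtm1; background 24.1%) and 7 lower (Camk2a, Nlgn1, Nlgn3, Nrxn2, Lrrtm2, Lrrtm3 and Kalrn; background 23.7%). On all 6 arrays as deposited, the groups did not overlap for 13 genes with S100a10 higher (55.9% of all genes) and 0 with S100a10 lower (7.9%). Of 70 kept probe sets, 22 were called higher and 3 lower (1 each of Homer2, Camk2d and Kalrn), against 44.2% and 4.39% of all probe sets. Of the 22, 4 were under 50 on all Glt25d2 arrays.

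Differences within a family, taken on each array, are free of a shift common to the whole array, though not of one that changes with brightness. Each gene enters with its brightest probe set. The gap Nlgn2 minus Nlgn1 was 2.01, 1.68 and 2.27 on the Glt25d2 arrays and 3.06, 3.58 and 3.09 on the S100a10 arrays, wider by 1.26. Glt25d2 replicate 3 lay with its group here, although both genes were low in it. The gap Nlgn3 minus Nlgn2 was -2.09, -1.80 and -2.32 against -3.39, -3.00 and -3.41. After quantile scaling the shifts of these pairs were 1.58 and -1.52.

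In their brightest probe sets the Lrrtm genes also separated, although 1 dimmer probe set each of Lrrtm2 and Lrrtm3 lay on the side of Lrrtm1. Lrrtm3 minus Lrrtm1 was -1.11, -0.87 and -0.50 on the Glt25d2 arrays and -2.56, -2.53 and -2.35 on the S100a10 arrays, a shift of -1.65 (-1.82 after quantile scaling). Lrrtm2 minus Lrrtm1 shifted by -1.28 (-1.74). Inside the cell, Dlgap3 minus Dlgap1 was -4.61, -5.67 and -5.63 against -4.03, -3.94 and -3.84, a shift of 1.36 (0.90), and Camk2g minus Camk2a shifted by 0.63 (0.77).

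Of 29 such pairs in the families, 14 did not overlap between the groups. The share over pairs of other genes was not computed, so whether 14 of 29 is many or few is not known. Taken singly, 55.9% of all genes did not overlap with S100a10 higher, and 7.9% with S100a10 lower. With 3 against 3 arrays an exact two-sided permutation test cannot go below p = 0.1, so no test is given. Dlg4 minus Dlg1 did not overlap as deposited (a shift of 0.63) but moved by 0.02 after quantile scaling. Nrxn3 minus Nrxn2 overlapped, at 0.38, 0.86 and 2.69 against 1.90, 1.80 and 2.07.

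**Figure D4:**
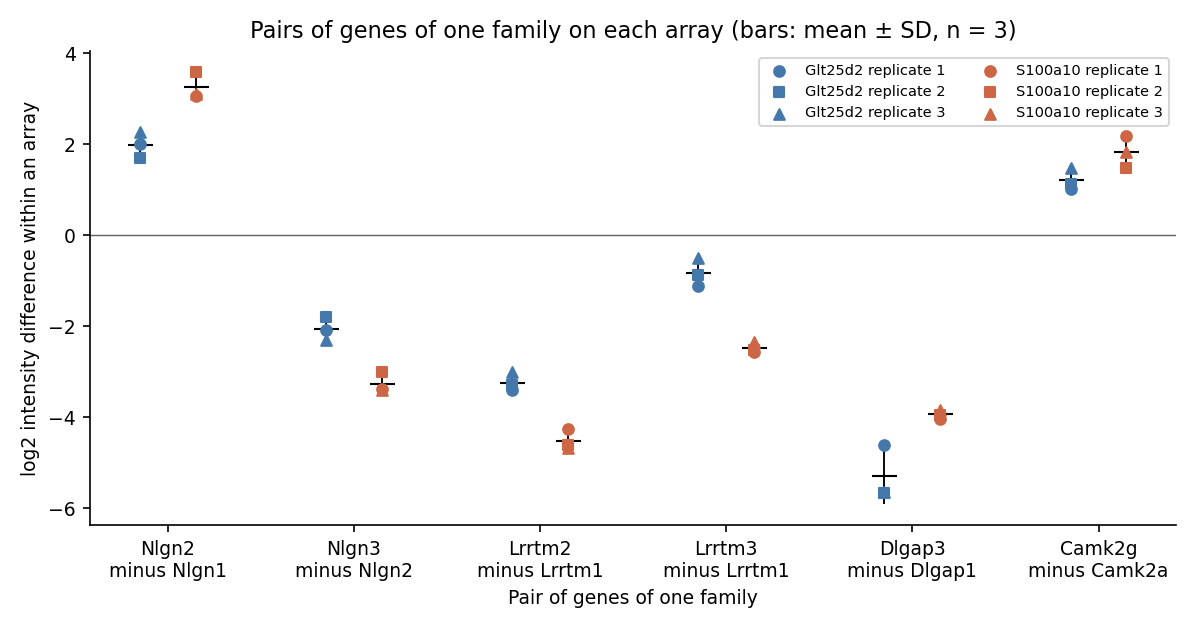
Points give, for each array, the log2 intensity of one gene minus that of another of its family, with bars for the group mean ± SD (n = 3). The Glt25d2 arrays (blue) and S100a10 arrays (red) do not overlap in any of the 6 pairs shown, which were chosen after their values were seen.

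Probe sets of one gene often disagreed. Among 19 genes with at least 2 kept probe sets, 14 had both called and uncalled ones, and in 5 the signs differed. Equal values on at least 2 Glt25d2 arrays occurred in 5 of the 30 genes (Dlgap4, Shank3, Homer2, Nrgn and Baiap2), 4 of them called, and in 22.1% of all genes, of which 74.9% were called. Their spread is understated.

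**Figure D5:**
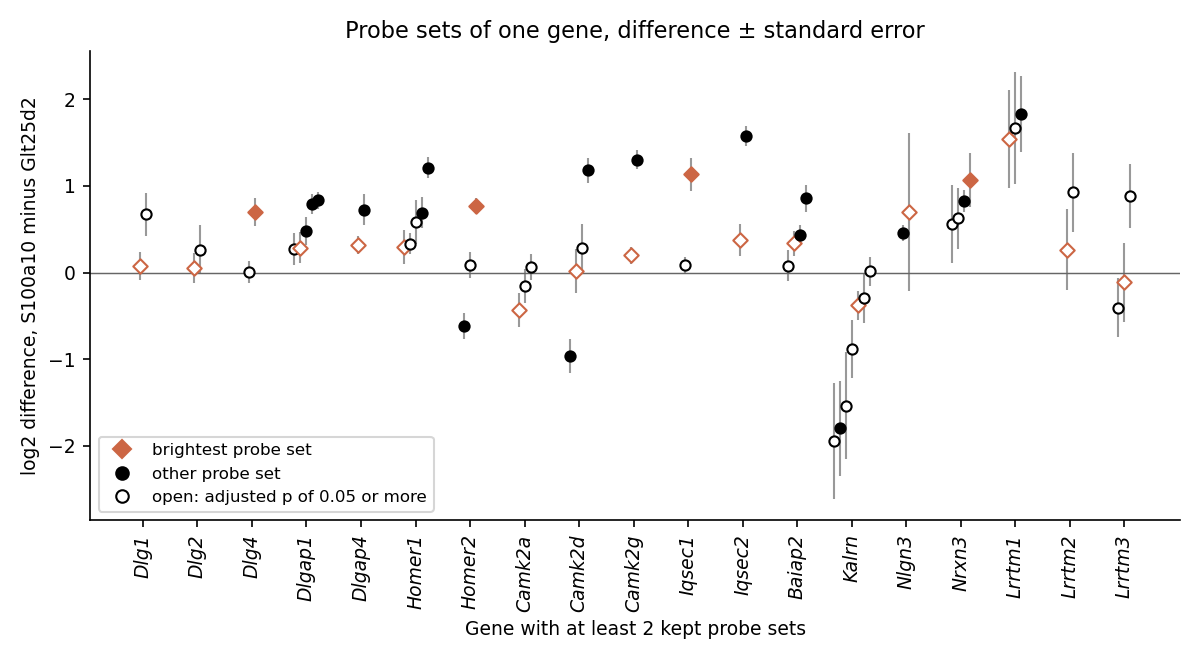
For each of the 19 genes with at least 2 kept probe sets, the plot gives the log2 difference, S100a10 minus Glt25d2, of every such probe set with its standard error, as deposited. The brightest is a red diamond, and filled marks passed an adjusted p of 0.05 over all probe sets. Kalrn lies mostly below 0, the 3 of Lrrtm1 lie together above 1.5, and Homer2 has called probe sets on both sides. The upper called one of Camk2d, the topmost of Dlgap1 and the filled one of Nlgn3 were under 50 on all Glt25d2 arrays.

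Other genes of the synapse, from lists drawn up with the series' earlier results known, were counted in the same fit. Beside the counts of this and the following lists stand the shares over all genes. These were 44.7% higher and 4.59% lower as deposited, with a median of 0.56. They were 55.8% and 6.34% without Glt25d2 replicate 3, and 18.7% and 19% after quantile scaling. Of 34 other synaptic adhesion genes 5 were higher and 0 lower, with a median of 1.06, and without Glt25d2 replicate 3 these were 12, 7 and 0.19. Lrrc4b, a leucine-rich repeat protein that binds presynaptic receptor phosphatases, was under 50 on all Glt25d2 arrays and read 133, 134 and 167 on the S100a10 arrays, at least 2.90-fold higher against that limit. The fit on the measured means of 23.9 and 145 passed (adjusted p = 7.74e-05, limma), and that p does not belong to the bound. Cbln4, a secreted neurexin ligand, read 252, 298 and 72.8 against 870.3, 905 and 1277 (2.51, adjusted p = 0.0135, limma). Lrrc4, a relative of Lrrc4b, read 1121, 1061 and 634 against 1895, 2269.8 and 2173 (1.21, adjusted p = 0.00891, limma).

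Of 36 other postsynaptic density genes 8 were higher and 4 lower, with a median of 0.16 (12 and 4 without Glt25d2 replicate 3). After quantile scaling 0 were higher and 9 lower. Sorbs2, an actin adaptor, was called lower under both: it read 836, 792 and 1075 on the Glt25d2 arrays and 246, 478 and 439.9 on the S100a10 arrays (-1.26, adjusted p = 0.0146, limma). Mpp2, another guanylate kinase scaffold, read 64.1, 80.4 and 85.7 against 171, 209 and 136 (1.15, adjusted p = 0.00525, limma; 0.25 and not called after quantile scaling). Sipa1l2 (1.08) was also called higher as deposited and not after quantile scaling (0.48, adjusted p = 0.0569, limma).

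Of 18 genes for calmodulin and CaMKII partners, 7 were higher and 1 lower, with a median of 0.27, and after quantile scaling 4 and 2. Camk2n2, an inhibitor protein of CaMKII, read 2056, 1893 and 2058 on the Glt25d2 arrays and 7918, 8438 and 8058 on the S100a10 arrays. It was called higher by 2.02 (adjusted p = 3.46e-05, limma), and by 1.73 after quantile scaling. Ppp1r1a, an inhibitor of protein phosphatase 1, read 699, 579 and 635 against 2555, 2507 and 2558 (2.0, adjusted p = 5.67e-05, limma). Camk1 read 877, 983 and 1349 against 3018, 2544 and 3002 (1.44, adjusted p = 0.00173, limma). Of 6 inhibitory postsynaptic genes, 1 was higher, Slitrk3, at least 1.45-fold, and it was not called after quantile scaling.

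Markers of other cells differed between the groups, as did many genes. Over all genes, 44.7% were called higher in S100a10 and 4.59% lower as deposited. The sums below add deposited intensities of unlike probe sets, so the brightest genes of a list weigh most. They also carry the general shift between the arrays, and the excitatory list includes Camk2a. S100a10 itself was higher in its line by 2.25, and Colgalt2 read 827 to 1352 in Glt25d2 and 11.4 to 11.7 in S100a10. Of 8 mural and fibroblast markers 7 were higher in S100a10 and 1 lower, their summed intensity being 704 to 891 on the Glt25d2 arrays and 9442 to 11824 on the S100a10 arrays, with Pdgfrb, Myl9, Col1a2, Lum and Foxc2 under 50 on all Glt25d2 arrays. Excitatory neuron markers summed to 12490 to 14310 and 21283 to 23888 (3 of 7 higher, 0 lower), and interneuron markers to 12773 to 18866 and 18051 to 23038 (4 of 9 higher, 1 lower). Astrocyte markers summed to 9722 to 19583 and 19776 to 25482 (2 of 8 higher, 2 lower), and 5 of the 8 were over 2-fold lower in Glt25d2 replicate 3. Gjb6 and Aldh1l1 were the astrocyte markers called higher, and Gfap and Aldoc those called lower. Pan-neuronal markers summed to 110655 to 114976 and 131451 to 136418 (2 of 8 higher, 0 lower), and microglial markers to 292 to 470.4 and 504 to 798 (1 of 4 higher, 0 lower). The other way lay oligodendrocyte markers, at 16555 to 22894 and 9059 to 15385 (1 of 7 higher, 1 lower), and the 2 endothelial markers tested, at 159.9 to 562 and 118 to 126 (0 higher, 1 lower). Without Glt25d2 replicate 3 the called counts (higher and lower) were 5 and 0 of the excitatory, 3 and 0 of the pan-neuronal and 5 and 2 of the interneuron markers. They were 4 and 3 of the astrocyte, 1 and 3 of the oligodendrocyte and 0 and 2 of the endothelial markers (55.8% and 6.34% of all genes). Quantile scaling of all 6 arrays gave 3 and 1 of the excitatory, 2 and 1 of the pan-neuronal and 4 and 1 of the interneuron markers. It gave 2 and 2 of the astrocyte, 0 and 3 of the oligodendrocyte and 0 and 2 of the endothelial markers. Mural and fibroblast markers gave 7 and 1, and microglial markers 1 and 0 (18.7% and 19% of all genes). The part of these cells in the differences above was not tested.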

How the data were processed

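The deposited values are probe-set intensities on a linear scale from Affymetrix mouse arrays, 3 per line, made by the authors with GCRMA, per the submitters' processing notes, in a version not known here. As a method, GCRMA corrects background by probe base composition, normalizes quantiles and summarises probes. RNA was amplified in 2 cycles from 15 ng, per the labels. The 2 groups' quantiles differ, so whether both were normalized together is unknown.

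Of 45101 probe sets, 64 are controls, 34945 name 1 gene, 932 several and 9160 none in the platform annotation. A probe set was kept where either group averaged 50 or more (21291), the limit that the series text proposes, whose list of neuronal probe sets was not used here. Each gene took the brightest of its kept probe sets (mean log2 over the 6 arrays). The intensities were taken to log2 and fitted with limma 3.58.1 in R 4.3.3 (2-sided, Benjamini-Hochberg over all genes, threshold 0.05), without a block, checked on simulated data. Tables and plots used Python 3.11.15. The number of arrays limits the precision.

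Genes and lists were chosen with earlier results of these data known, so no test over a list is given. Every tested gene is named, and, in each other list, the 3 with the largest differences among those called without overlap. Alternatives were the filter, a pseudocount of 16, a floor of 50, scaling, the prior, array weights, the probe-set rule, a replicate block and leaving out each array. Whether the replicate numbers pair the arrays is not known, so the main fit did not use them as pairs.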

Additional observations from a re-analysis of the deposited data

How the results depend on the processing

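Scaling had the widest effect. Quantile normalization called 4 genes higher and 2 lower, with a median of -0.085, and turned the sign of Dlg1 (-0.17), Dlg2 (-0.44), Dlg3 (-0.29), Dlg4 (-0.15), Dlgap2 (-0.23), Dlgap4 (-0.040), Camk2d (-0.67), Camk2g (-0.11), Nlgn1 (-0.067), Nlgn3 (-0.011), Nrxn2 (-0.055), Lrrtm2 (-0.54), Iqsec2 (-0.22), Baiap2 (-0.10) and Cnksr2 (-0.36). Median centring called 2 higher and 8 lower (median -0.41) and turned Dlg1 (-0.70), Dlg2 (-0.71), Dlg3 (-0.69), Dlg4 (-0.069), Dlgap1 (-0.48), Dlgap2 (-0.25), Dlgap4 (-0.45), Homer1 (-0.48), Homer2 (-0.0016), Camk2d (-0.75), Camk2g (-0.57), Nrgn (-0.26), Nlgn1 (-0.13), Nlgn3 (-0.069), Nrxn2 (-0.32), Lrrtm2 (-0.50), Iqsec2 (-0.39), Baiap2 (-0.43) and Cnksr2 (-0.54). Array weights called 16 higher and 2 lower and turned Camk2b (0.070), Camk2d (-0.0081), Nlgn1 (-0.30), Nlgn3 (-0.24), Nrxn2 (-0.48) and Lrrtm2 (-0.21). Averaging all probe sets per gene turned Lrrtm3 (0.12). Quantile normalization without Glt25d2 replicate 3 called 4 higher and 7 lower (median -0.070) and turned Dlg1 (-0.051), Dlg2 (-0.28), Dlg3 (-0.19), Dlg4 (-0.015), Dlgap4 (-0.039), Camk2d (-0.43), Camk2g (-0.090), Nlgn1 (-1.0), Nlgn3 (-0.93), Nrxn2 (-0.98), Lrrtm2 (-0.96), Iqsec2 (-0.18), Baiap2 (-0.089) and Cnksr2 (-0.22).

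Leaving out 1 array at a time gave 7 to 13 genes higher and 0 to 3 lower, and the following crossed zero over the 6 omissions: Dlg1 (-0.030 to 0.21), Dlg2 (-0.066 to 0.22), Dlg3 (-0.0035 to 0.20), Camk2b (-0.10 to 0.020), Camk2d (-0.25 to 0.23), Nlgn1 (-0.44 to 1.22), Nlgn3 (-0.36 to 1.28), Nrxn2 (-0.57 to 0.99), Lrrtm2 (-0.28 to 0.56), Lrrtm3 (-0.61 to 0.14) and Cnksr2 (-0.031 to 0.37). The counts stayed within 1.5 times of 9 higher and 0 lower with no filter (11), a mean of 50 in both groups (7) or over all arrays (7), a pseudocount of 16 (9), values under 50 set to 50 (8), a trended prior (9), averaged probe sets (12) and every probe set alone (8). The replicate block gave 6 higher and 0 lower, losing Dlg4 (adjusted p = 0.0513), Dlgap4 (0.13) and Nrxn3 (0.0671, limma). Deviations of arrays with the same number correlated at -0.49, 0.27 and -0.26 over all genes. Between arrays of different number, the largest positive value was 0.49, for Glt25d2 replicate 3 and S100a10 replicate 1. Deviations from a mean of 3 arrays depend on one another, so these values cannot decide whether the numbers pair the arrays. The cause of the changes with scaling was not tested. Intensity near the limit of 50 bounds what can be said of Homer3 and Shank1.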
